A study of Drosophila melanogaster with 36 samples.

Results

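The small heat shock proteins described here are products of 6 genes of Drosophila melanogaster, Hsp22, Hsp23, Hsp26, Hsp27, Hsp67Ba and Hsp67Bc, chosen by gene symbol from the 17552 genes of the count table. All 6 had a line in the table, and 5 of them had counts. RNA was sequenced from heads and abdomens of females of the IV base population, a standard stock used for every sample. Mated females had been paired at 3 days of age with males of polygamous populations (P1, P2 and P3) or of monogamous populations (M1, M2 and M3) and were frozen 24 h later, at 4 days of age. Virgin females were frozen at the same age without mating. The males' populations came from the same base, had evolved for 182 generations in groups of 5 females and 5 males or in single pairs, and had spent 1 further generation under common rearing. In each tissue there were 3 libraries of females mated to polygamous-line males, 3 of females mated to monogamous-line males and 3 of virgins. Each library pooled 20 females, and a mated library stands for 1 population of males.

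Small heat shock proteins share an alpha-crystallin domain and bind unfolding proteins without using ATP, holding them until chaperones of the Hsp70 system refold them or autophagy removes them. In flies their genes are activated by heat shock factor under stress and by ecdysone during development. Hsp26 and Hsp27 are also transcribed without stress in the nurse cells of the ovary, as is Hsp83, so that an abdomen with developing eggs carries much of their RNA. Hsp22 is a mitochondrial protein, Hsp23 and Hsp26 are cytosolic, Hsp27 is mainly nuclear, and Hsp67Bc works with the co-chaperone starvin (stv) in chaperone-assisted autophagy.

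The 6 genes lie together in the 67B cluster on chromosome arm 3L, within 14.2 kb (BDGP6, Ensembl annotation release 115). Hsp67Bc (FBgn0001229) occupies 3L:9371511-9372497 on the minus strand. Hsp22 (FBgn0001223) lies at 3L:9372931-9374964 on the plus strand. Hsp26 (FBgn0001225) lies at 3L:9376418-9377427 and Hsp67Ba (FBgn0001227) at 3L:9377802-9379534, both on the minus strand. Hsp23 (FBgn0001224) at 3L:9381882-9382765 and Hsp27 (FBgn0001226) at 3L:9384063-9385694 are on the plus strand. CG4461, another alpha-crystallin domain gene, sits between Hsp22 and Hsp26.

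**Figure D1:**
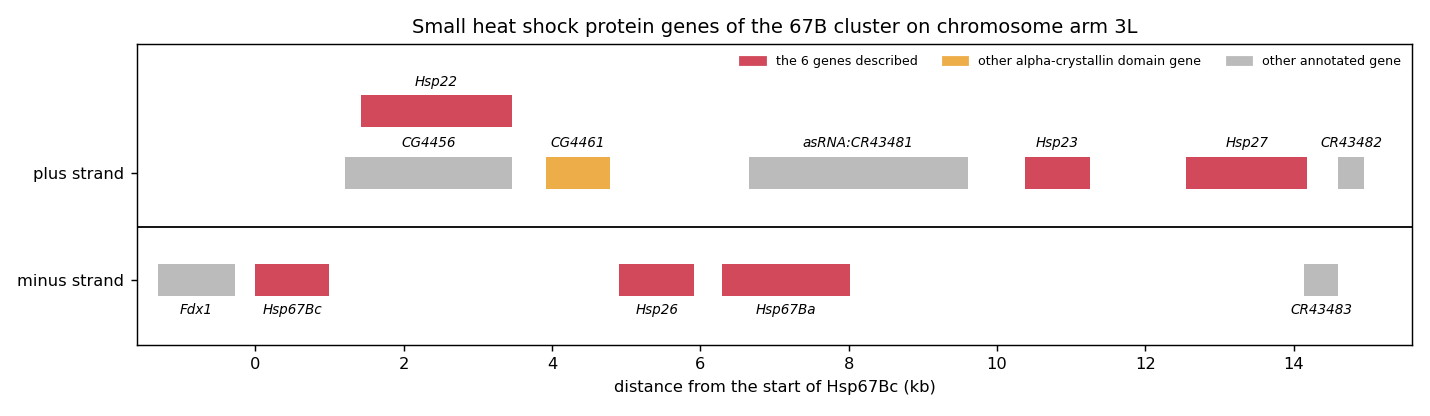
Map of the 67B cluster with distance from the start of Hsp67Bc in kb on the x axis and the strand on the y axis. Hsp22 is drawn above CG4456 because the whole of Hsp22 lies inside that gene on the same strand, while 1316 of the 1733 exon bases of Hsp67Ba are covered by asRNA:CR43481 on the other strand.

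Hsp22 had 0 counts in all 18 libraries, and the annotation bears on that 0. All 1900 of its exon bases are also exon of CG4456 on the same strand, and CG4456 itself, with 209 exon bases of its own, had 0 to 3 counts in abdomen libraries and 0 to 1 in head libraries. Of 288 protein-coding genes without a single exon base free of another gene on their strand, 279 (96.9%) likewise stood at 0 in every library, against 554 (4.34%) of 12758 genes with free bases. Hsp22 is therefore listed at 0 and given no limit, fold or test. Of 64 genes overlapped in full by genes of the other strand only, 1 (1.56%) was at 0, and for this reason Hsp67Ba, with its antisense partner, keeps its values below. The antisense asRNA:CR43481 had 8.73 to 12.7 CPM, counts scaled to the library total, in mated abdomens and 5.40 to 6.43 CPM in virgin abdomens, levels that per kilobase of exon lay above those of Hsp67Ba. Whether any of these reads were assigned to the wrong strand was not tested.

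Abdomens and heads carried their labelled tissue. The germline gene osk reached 1468 to 2010 CPM in abdomens and 1.60 to 2.77 CPM in heads, and 13 of 13 photoreceptor genes were lower in abdomens. Abdomen libraries held 41057456 to 56772245 counts and head libraries 40396031 to 64761633. Transcripts of 28 midgut protease genes summed to 9.88 to 12940 CPM in mated heads and 11.7 to 7990 CPM in virgin heads, where virgin 1, M1 and M2 stood far above the others. Both sequencing runs of a library were summed. Values are means ± SD with n libraries in CPM, log2 differences are ± standard error (SE), and adjusted p-values are those of the edgeR quasi-likelihood test, adjusted by the Benjamini-Hochberg method across every gene of a comparison, with a call below 0.05.

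Abdomens and heads differed in which small heat shock proteins they made. Hsp26 and Hsp27 were far higher in abdomens than in heads, Hsp67Ba and Hsp67Bc were higher in heads, and Hsp23 did not pass the test in either direction. Hsp26 had 1085, 1348 and 1009 CPM in abdomens mated to P1, P2 and P3 males, 1135, 1002 and 1010 CPM in those mated to M1, M2 and M3 males, and 1142, 1129 and 1423 CPM in the virgin abdomens. Its head libraries had 178, 122 and 15.99 CPM after P1, P2 and P3 matings, 90.5, 21.2 and 33.2 CPM after M1, M2 and M3 matings, and 15.8, 10.6 and 31.1 CPM in virgins. Every abdomen library lay above every head library. In virgins the log2 difference, abdomen minus head, was 5.76 ± 0.84 (adjusted p = 1.81e-05, edgeR), a 54.1-fold difference, and in mated females it was 3.61 ± 0.53 (adjusted p = 2e-05), or 12.2-fold.

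Hsp27 followed the same pattern at a lower level. It had 470, 562 and 379 CPM in abdomens mated to P1, P2 and P3 males, 478, 434 and 439 CPM in those mated to M1, M2 and M3 males, and 483, 498 and 663 CPM in virgin abdomens. In heads it had 44.7, 37.8 and 4.55 CPM after P1, P2 and P3 matings, 28.0, 5.65 and 9.96 CPM after M1, M2 and M3 matings, and 4.25, 2.62 and 6.51 CPM in virgins. The abdomen range started at 379 CPM and the head range ended at 44.7 CPM. The log2 difference was 6.69 ± 0.87 in virgins (adjusted p = 5.93e-06, edgeR), a 103-fold difference, and 4.16 ± 0.54 in mated females (adjusted p = 5.67e-06), or 17.8-fold.

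Hsp67Ba was the reverse. It averaged 1.37 ± 0.249 CPM in mated abdomens (n = 6) and 14.9 ± 1.87 CPM in mated heads (n = 6), and 1.55 ± 0.192 CPM in virgin abdomens (n = 3) and 17.6 ± 3.38 CPM in virgin heads (n = 3). Its log2 difference, abdomen minus head, was -3.72 ± 0.20 in virgins (adjusted p = 1.99e-11, edgeR) and -3.72 ± 0.14 in mated females (adjusted p = 1.42e-13). Head levels ran from 13.1 to 21.4 CPM and abdomen levels from 1.10 to 1.81 CPM, so the tissues did not overlap.

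Hsp67Bc was also the lower in abdomens, by a margin that mating narrowed. Virgin abdomens had 0.395, 0.384 and 0.255 CPM, from 20, 21 and 12 counts, against 4.29, 5.52 and 5.77 CPM in virgin heads. The log2 difference was -4.0 ± 0.42 in virgins (adjusted p = 1.38e-07, edgeR) and -1.93 ± 0.27 in mated females (adjusted p = 4.03e-06). Hsp23 had a log2 difference of -1.21 ± 0.64 in virgins (adjusted p = 0.0907, edgeR) and -0.78 ± 0.45 in mated females (adjusted p = 0.112). For Hsp23 the call turned on single libraries. In virgins the adjusted p was 0.0268 without mated head P1 and 0.0411 without mated head P3, and in mated females 0.0221 without head P3 and 0.0341 without abdomen M1. DESeq2 gave 0.031 in virgins and 0.0351 in mated females. The log2 difference of Hsp23 in mated females was -0.20 without head P1 and -1.12 without abdomen M1.

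In virgins and again in mated females, 2 of the 5 members tested were higher in abdomens and 2 lower. Of all 11631 genes tested, 88.5% differed between the tissues in virgins and 90.7% in mated females, so 4 called members of 5 is close to the background. The germline markers differed in the same direction as Hsp26 and Hsp27: 10 of 11 tested were higher in abdomens, with a median log2 difference of 8.04 in virgins. Their part in the tissue difference of Hsp26 and Hsp27 was not tested, and in pooled tissue fewer cells of a type and less RNA per cell cannot be told apart.

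The make-up of the family differed with the tissue. CPM per kilobase of exon (RPKM) allow genes to be compared with each other. The orders and shares below hold among the genes with counts, since the 0 of Hsp22 is given no limit. On that scale Hsp26 was the most abundant alpha-crystallin transcript of abdomens, with 1087 ± 132 RPKM in mated (n = 6) and 1219 ± 165 RPKM in virgin females (n = 3). Hsp27 came next, with 282 ± 37.3 RPKM in mated and 336 ± 61.0 RPKM in virgin abdomens. CG14207, l(2)efl and Hsp23 followed in both mated and virgin abdomens, at 65.1 ± 5.04, 44.0 ± 9.72 and 20.7 ± 8.99 RPKM in mated ones, and no library of a higher-ranked gene among these overlapped one of the next. Hsp67Bc and Hsp67Ba were the last members with counts, at 1.70 ± 0.723 and 0.789 ± 0.144 RPKM in mated abdomens, where their libraries overlapped, and at 0.349 ± 0.0791 and 0.896 ± 0.111 RPKM in virgin abdomens, where they did not.

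In heads CG14207, CG7409, l(2)efl and CG4461, none of them a member, led the order of the means. Hsp26 came next in mated heads with 76.1 ± 64.5 RPKM, but its libraries overlapped those of the leading genes. It reached 176 RPKM in head P1, above the highest CG14207 library at 159 RPKM, and 121 RPKM in head P2, above every CG4461 library of mated heads (83.5 to 106 RPKM). Hsp23 (31.7 ± 32.5 RPKM) and Hsp27 (13.3 ± 10.7 RPKM) overlapped Hsp26 and each other. In virgin heads Hsp23 (20.3 ± 8.25 RPKM) and Hsp26 (19.0 ± 10.5 RPKM) overlapped, and Hsp27 was the lowest member with counts, at 2.73 ± 1.20 RPKM. Hsp67Ba had 8.60 ± 1.08 RPKM in mated and 10.2 ± 1.95 RPKM in virgin heads, and Hsp67Bc 5.33 ± 2.46 RPKM in mated and 5.26 ± 0.800 RPKM in virgin heads.

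Together Hsp26 and Hsp27 made up 89.3% to 91.6% of the summed RPKM of the alpha-crystallin genes with counts in mated abdomens and 94.3% to 95.7% in virgin abdomens. In heads they made up 3.37% to 23.8% in mated females and 2.49% to 6.01% in virgins. The ratio of Hsp26 to Hsp27, both in RPKM, was 3.47 to 4.30 in abdomen libraries and 5.23 to 7.71 in head libraries, without overlap.

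**Figure D2:**
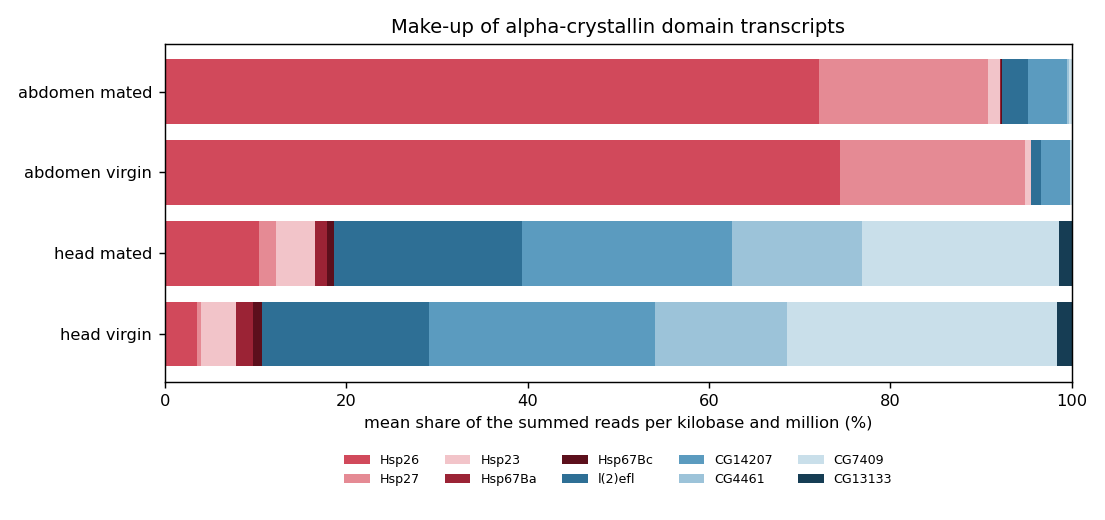
Mean share of each gene, in percent of the summed RPKM of 10 alpha-crystallin domain genes (x axis), in mated abdomens, virgin abdomens, mated heads and virgin heads (y axis). Hsp26 and Hsp27 together fill most of both abdomen bars (89.3% to 95.7% in the single libraries) and little of the head bars, where CG14207, CG7409, l(2)efl and CG4461 take most.

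After mating, Hsp67Bc rose in abdomens and was the one member of 5 tested to pass there. It had 2.09, 2.68 and 1.22 CPM after P1, P2 and P3 matings and 2.11, 1.04 and 0.926 CPM after M1, M2 and M3 matings, against 0.395, 0.384 and 0.255 CPM in virgins. All 6 mated libraries lay above all 3 virgin libraries; among all genes tested in abdomens, 50.5% had mated and virgin libraries that did not overlap. The log2 change was 2.18 ± 0.38, a 4.52-fold rise (adjusted p = 0.00122, edgeR). Counts of 12 to 21 per virgin library and the spread among mated libraries, 0.926 to 2.68 CPM, both limit the precision of this fold. Measured separately against the same virgins, the change was 2.44 ± 0.41 after matings with polygamous-line males (adjusted p = 0.00159) and 1.91 ± 0.41 after matings with monogamous-line males (adjusted p = 0.00485).

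The share of members called was below the background, since 54.2% of the 10350 genes tested in abdomens differed between mated and virgin females. In the separate comparisons 47.6% of genes were called after polygamous-line and 45.4% after monogamous-line matings. The median log2 change was -0.13 over the 5 members and 0.04 over all genes.

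Hsp23 had 20.4, 26.8 and 14.5 CPM in abdomens mated to P1, P2 and P3 males and 27.7, 8.77 and 11.7 CPM in those mated to M1, M2 and M3 males, against 10.3, 8.17 and 9.22 CPM in virgins. The M2 library lay within the virgin range and the other 5 mated libraries above it. Its log2 change of 1.02 ± 0.39 missed the threshold (adjusted p = 0.0529, edgeR). It passed without M1 (0.69, adjusted p = 0.0265), without M2 (1.18, adjusted p = 0.0194) and with DESeq2 (0.99, adjusted p = 0.0316).

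Hsp26, Hsp27 and Hsp67Ba had log2 changes of -0.13 ± 0.12, -0.21 ± 0.14 and -0.14 ± 0.20, none past the threshold (adjusted p = 0.394, 0.221 and 0.569, edgeR). Mated and virgin abdomens overlapped for all 3. Hsp27 averaged 460 ± 60.8 CPM in mated abdomens (n = 6) and 548 ± 99.6 CPM in virgin abdomens (n = 3), where virgin 3 at 663 CPM was the highest of the tissue.

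These abdomen values are shares of a tissue whose make-up also moved with mating. The counts of marker genes below stand beside 54.2% of all genes called in abdomens, in either direction. Muscle markers rose in 14 of 17 genes, with sums of 2980 to 3399 CPM in mated and 1542 to 1855 CPM in virgin abdomens, and no muscle marker was at 0. Germline markers fell in 6 of 11 genes tested and rose in 1, with sums of 6797 to 8151 CPM in mated and 8624 to 8956 CPM in virgin abdomens. Follicle cell and eggshell genes rose in 9 of 12, with sums of 7145 to 18240 CPM in mated and 1793 to 2382 CPM in virgin abdomens, and midgut protease genes in 23 of 26, with 4018 to 8902 CPM in mated and 1411 to 3059 CPM in virgin abdomens. Fat body genes rose in 5 of 8 tested (12010 to 22160 CPM in mated and 5411 to 6898 CPM in virgin abdomens), and blood cell genes in 2 of 5 (128 to 160 CPM in mated and 51.9 to 73.1 CPM in virgin abdomens). Renal tubule genes rose in 8 of 10, spermathecal genes in 2 of 3, neuronal genes in 7 of 12 and early zygotic embryo genes in 9 of 10. None of these lists had a gene that fell. The neuronal sums overlapped, at 45.1 to 73.3 CPM in mated and 55.8 to 69.1 CPM in virgin abdomens. Of the 12 neuronal genes 8 rose after monogamous-line and 2 after polygamous-line matings. Sums of the renal tubule (355 to 430 and 238 to 263 CPM), spermathecal (45.0 to 66.5 and 32.5 to 39.1 CPM) and embryo genes (61.5 to 80.15 and 32.9 to 41.65 CPM) were higher in mated abdomens. When libraries were scaled so that muscle and renal tubule genes were equal, the median over all genes tested became -0.84, and Hsp26, Hsp27 and Hsp67Ba passed as lower in mated abdomens (-1.04, -1.13 and -1.02, adjusted p = 4.72e-07, 1.97e-06 and 0.000262). Relative to that median they stood at -0.19, -0.28 and -0.17. Hsp67Bc stayed called at 1.35 (adjusted p = 0.000675) and Hsp23 stood at 0.12 (adjusted p = 0.816), which are 2.20 and 0.96 above the median. The part of tissue make-up in these results was not tested.

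**Figure D3:**
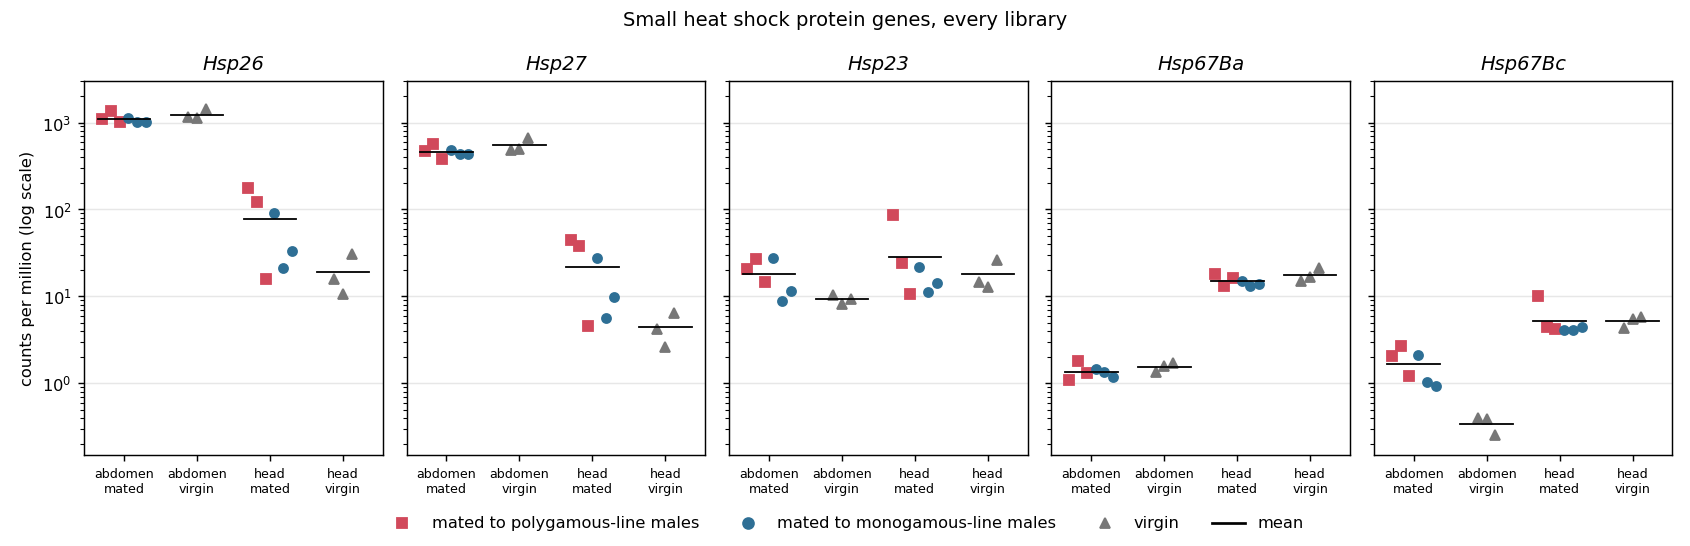
Level of 5 small heat shock protein genes in each library, in CPM on a log scale (y axis), by tissue and mating (x axis). Squares are females mated to polygamous-line males, circles females mated to monogamous-line males, triangles virgins and black lines group means; the mated abdomens of Hsp67Bc lie at 0.926 to 2.68 CPM, above the virgin abdomens at 0.255 to 0.395 CPM, and the mated heads of Hsp26 span 15.99 to 178 CPM.

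In heads, mating left none of the 5 members past the threshold, and none had an unadjusted p below 0.05. DESeq2 and limma voom also called none in this comparison. Of all 10886 genes tested in heads, 2.21% were called, and 8.27% had mated and virgin libraries that did not overlap, which none of the 5 members had. Taken separately against the same virgins, 1.38% of genes were called after polygamous-line and 0.992% after monogamous-line matings, and no member by edgeR. Hsp27 had an unadjusted p below 0.05 after polygamous-line matings (2.74 ± 1.03, adjusted p = 0.232), where DESeq2 called it (adjusted p = 0.0443), and stood at 1.77 ± 1.01 after monogamous-line matings (adjusted p = 0.65). Hsp26 averaged 76.9 ± 65.1 CPM in mated heads (n = 6) and 19.2 ± 10.6 CPM in virgin heads (n = 3), a log2 change of 1.96 ± 0.94 (adjusted p = 0.38, edgeR). Hsp27 averaged 21.8 ± 17.4 CPM in mated heads and 4.46 ± 1.95 CPM in virgin heads, a log2 change of 2.25 ± 0.95 (adjusted p = 0.328, edgeR).

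The mated heads were not alike. For Hsp26 the libraries P1, P2 and M1 stood 9.29, 6.38 and 4.72 times above the virgin mean, whereas M3, M2 and P3 stood at 1.73, 1.11 and 0.834 times. For Hsp27 the same 3 libraries stood at 10.03, 8.46 and 6.27 times the virgin mean, and M3, M2 and P3 at 2.23, 1.27 and 1.02 times. The P3 and M2 libraries of both genes lay within the virgin range.

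Hsp23 had 85.6, 24.5 and 10.7 CPM in heads after P1, P2 and P3 matings and 21.7, 11.3 and 14.3 CPM after M1, M2 and M3 matings, against 14.8, 12.8 and 26.3 CPM in virgins. Only P1 lay above the virgin range, and the log2 change was 0.54 ± 0.69 (adjusted p = 0.752, edgeR). Without P1 it was -0.04. Hsp67Ba (-0.20 ± 0.12, adjusted p = 0.441) and Hsp67Bc (0.03 ± 0.27, adjusted p = 0.962) overlapped between mated and virgin heads. In Hsp67Bc, P1 stood at 10.2 CPM and the other 5 mated heads at 4.12 to 4.47 CPM.

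The 12 germline genes of the marker list summed to 312 to 386 CPM in mated heads and 355 to 371 CPM in virgin heads, most of it from tud. Without gcl, orb and tud, left out after their head values were seen, the sum of the other 9 was 11.3 to 12.6 CPM in mated heads and 11.9 to 13.9 CPM in virgin heads, against 5880 to 6873 CPM in mated and 7503 to 7801 CPM in virgin abdomens. CycB alone had 5.46 to 6.18 CPM of that in mated and 5.54 to 6.68 CPM in virgin heads, and BicC was at 0 in every head. The part of ovarian RNA in the head values was not tested. The heads with high midgut transcripts were virgin 1, M1 and M2, and the heads highest in Hsp26 were P1, P2 and M1. The part of midgut RNA in the head values was not tested.

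**Figure D4:**
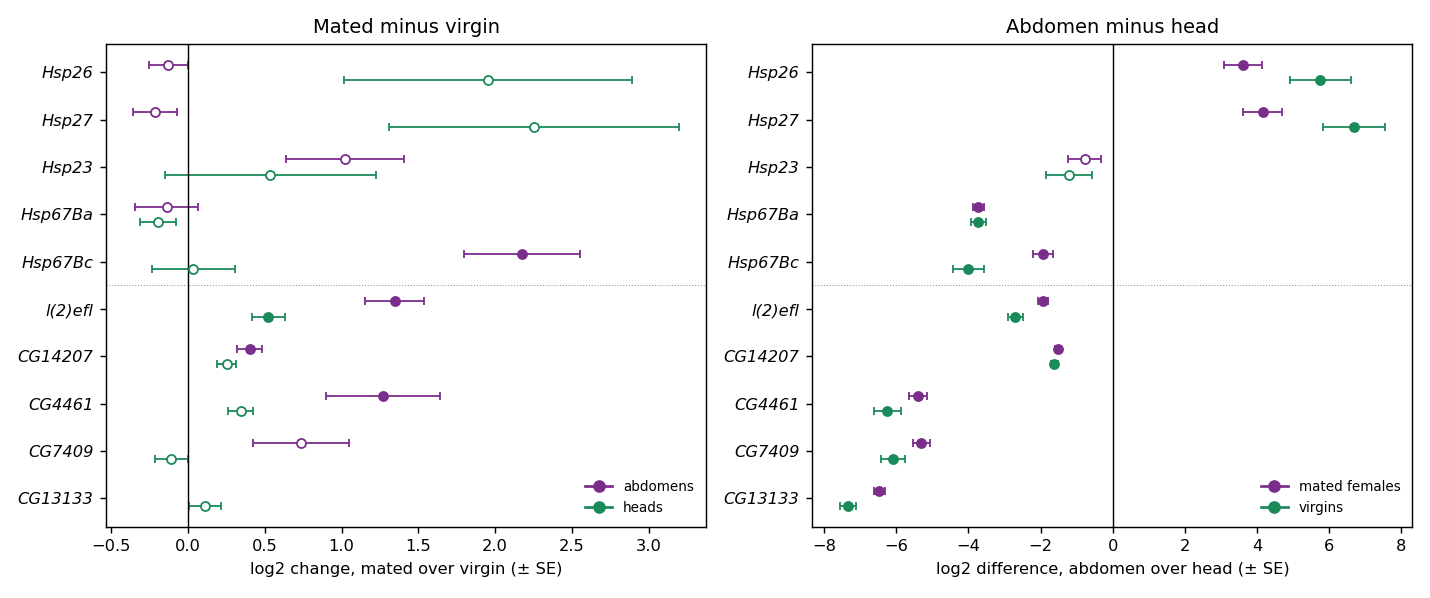
Log2 change ± SE (x axis) of each gene (y axis), mated over virgin in abdomens and heads (left) and abdomen over head in mated females and virgins (right). Filled points have an adjusted p below 0.05; Hsp67Bc in abdomens (2.18 ± 0.38) is the one filled member in the left plot, and Hsp26 and Hsp27 lie far right of 0 in the right plot.

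The test for a difference in mating response between tissues called 2 of the 5 members, in opposite directions. The change of Hsp67Bc was larger in abdomens than in heads by 2.07 ± 0.46 on the log2 scale (adjusted p = 0.00319, edgeR). That of Hsp27 was smaller in abdomens by -2.53 ± 0.85 (adjusted p = 0.0345), and that of Hsp26, at -2.15 ± 0.85, missed the threshold (adjusted p = 0.0642). With all libraries Hsp27 had no edgeR call in either tissue, at -0.21 ± 0.14 in abdomens and 2.25 ± 0.95 in heads. The model over both tissues took 1 spread per gene, although these SEs were unlike. Hsp23 differed by 0.43 ± 0.77 (adjusted p = 0.692) and Hsp67Ba had an adjusted p of 1. Over all 11631 genes, 37.2% were called in this comparison, so 2 members of 5 is close to the background.

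The call of Hsp67Bc held in all alternatives tried. That of Hsp27 was lost without head virgin 1 (adjusted p = 0.079), virgin 2 (0.0819), P1 (0.0567) or P2 (0.0538) and without abdomen virgin 3 (0.0782), M2 (0.0501), M3 (0.0525) or P1 (0.0504). It was also lost with limma voom (0.148), with a replicate block (-2.198, adjusted p = 0.066), without the filter on low counts (0.0516) and without heads virgin 1, M1 and M2 together (0.103). That of Hsp26 was gained without head virgin 3 (adjusted p = 0.0496), M2 (0.0466) or P3 (0.00866) and with DESeq2 (0.0143).

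The regime under which the males had evolved, the contrast around which the study was built, gave no call among the members in either tissue. No member had an unadjusted p below 0.05 in edgeR, and limma voom and DESeq2 also called no member. In abdomens 0% of 10350 genes were called, with 185 genes at an unadjusted p below 0.05, and in heads 0% of 10886, with 864 such genes. DESeq2 called 10 genes in abdomens and 18 in heads.

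In abdomens Hsp26 averaged 1148 ± 178 CPM after polygamous-line matings and 1049 ± 74.4 CPM after monogamous-line matings, a log2 difference of 0.12 ± 0.14 (adjusted p = 1, edgeR, n = 3 each). Hsp67Bc averaged 2.00 ± 0.733 CPM after polygamous-line and 1.36 ± 0.656 CPM after monogamous-line matings, a log2 difference of 0.53 ± 0.38 (adjusted p = 1, edgeR). In heads Hsp26 averaged 105 ± 82.3 CPM after polygamous-line and 48.3 ± 37.0 CPM after monogamous-line matings, a log2 difference of 1.10 ± 0.99 (adjusted p = 0.74, edgeR). Head differences of the other members were 1.32 ± 0.79 for Hsp23, 0.97 ± 0.97 for Hsp27, 0.54 ± 0.31 for Hsp67Bc and 0.14 ± 0.14 for Hsp67Ba (adjusted p = 0.614 to 0.765, edgeR). For Hsp23, Hsp26 and Hsp27 the P1 and P2 heads were the highest of the 6 mated heads and the P3 head the lowest, so the regimes overlapped.

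No member passed the test of whether the regime difference was unequal between tissues. None had an unadjusted p below 0.05 in edgeR, limma voom and DESeq2 called no member, and 0% of 11631 genes were called, with 741 at an unadjusted p below 0.05.

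Across the 6 male populations the same 3 stood highest in both tissues for 3 members. The libraries P1, P2 and M1 were the 3 highest mated libraries for Hsp23, Hsp26 and Hsp27 in abdomens and again in heads. Ranks hide the size of the gaps. In abdomens P1 and M3 had 1085 and 1010 CPM for Hsp26 and 470 and 439 CPM for Hsp27. Virgin abdomen 3 lay above every mated abdomen for both, at 1423 and 663 CPM. Hsp26 and Hsp27 correlated at 0.992, so they are not separate instances. For Hsp67Bc they were the 3 highest in abdomens only, and for Hsp67Ba in neither tissue. These 3 libraries were the highest in both tissues for 3.05% of the 9659 genes tested in both, or 295 genes. Taking each tissue by itself, they were the highest for 13.6% of these genes in abdomens and 4.78% in heads. The labels do not say whether the head and abdomen libraries of a male population came from the same females, so the tissues may not be independent, here and in the tests between tissues. The pattern was seen in the values first, so the shares are a description, with no test.

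In the list of heat shock factor and its inducible targets, part of the genes had the same 3 libraries on top. This was so in both tissues for 8 of 11 tested genes of that list, namely Hsp68, DnaJ-1, stv and 5 copies of Hsp70. The Hsp70 copies are near-identical and do not count as separate targets. Hsf, Hsp83 and lncRNA:Hsromega did not have these libraries as the 3 highest in either tissue. Hsp68 had 63.1, 95.05 and 17.6 CPM in abdomens after P1, P2 and P3 matings and 100, 13.7 and 23.0 CPM after M1, M2 and M3 matings, against 9.81, 6.81 and 11.1 CPM in virgins. In heads it had 222, 167 and 46.8 CPM after P1, P2 and P3 matings and 150, 54.6 and 66.0 CPM after M1, M2 and M3 matings, against 45.2, 37.8 and 80.4 CPM in virgins. The highest virgin head, virgin 3, lay above P3, M2 and M3, and it was also the highest virgin head for Hsp23, Hsp26, Hsp27, Hsp67Ba and Hsp67Bc.

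Hsp70Bb, an Hsp70 copy whose near-identical relatives make its own count uncertain, had 137, 94.9 and 8.06 CPM in heads after P1, P2 and P3 matings and 69.9, 23.0 and 31.4 CPM after M1, M2 and M3 matings, against 13.3, 6.91 and 29.9 CPM in virgins. Of the other alpha-crystallin genes tested in both tissues, 0 of 4 had these 3 libraries on top in both. In abdomens 2 of the 4 had them on top, l(2)efl and CG14207, and in heads 0. Without the mates M1, P1 and P2, a setting added after these values were seen, the abdomen rise of Hsp67Bc was 1.55 (adjusted p = 0.0053, edgeR) and Hsp27 was called lower in mated abdomens (-0.43, adjusted p = 0.0362). The labels name no handling, freezing or extraction batch, and the part of such a batch in the order of the libraries was not tested.

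**Figure D5:**
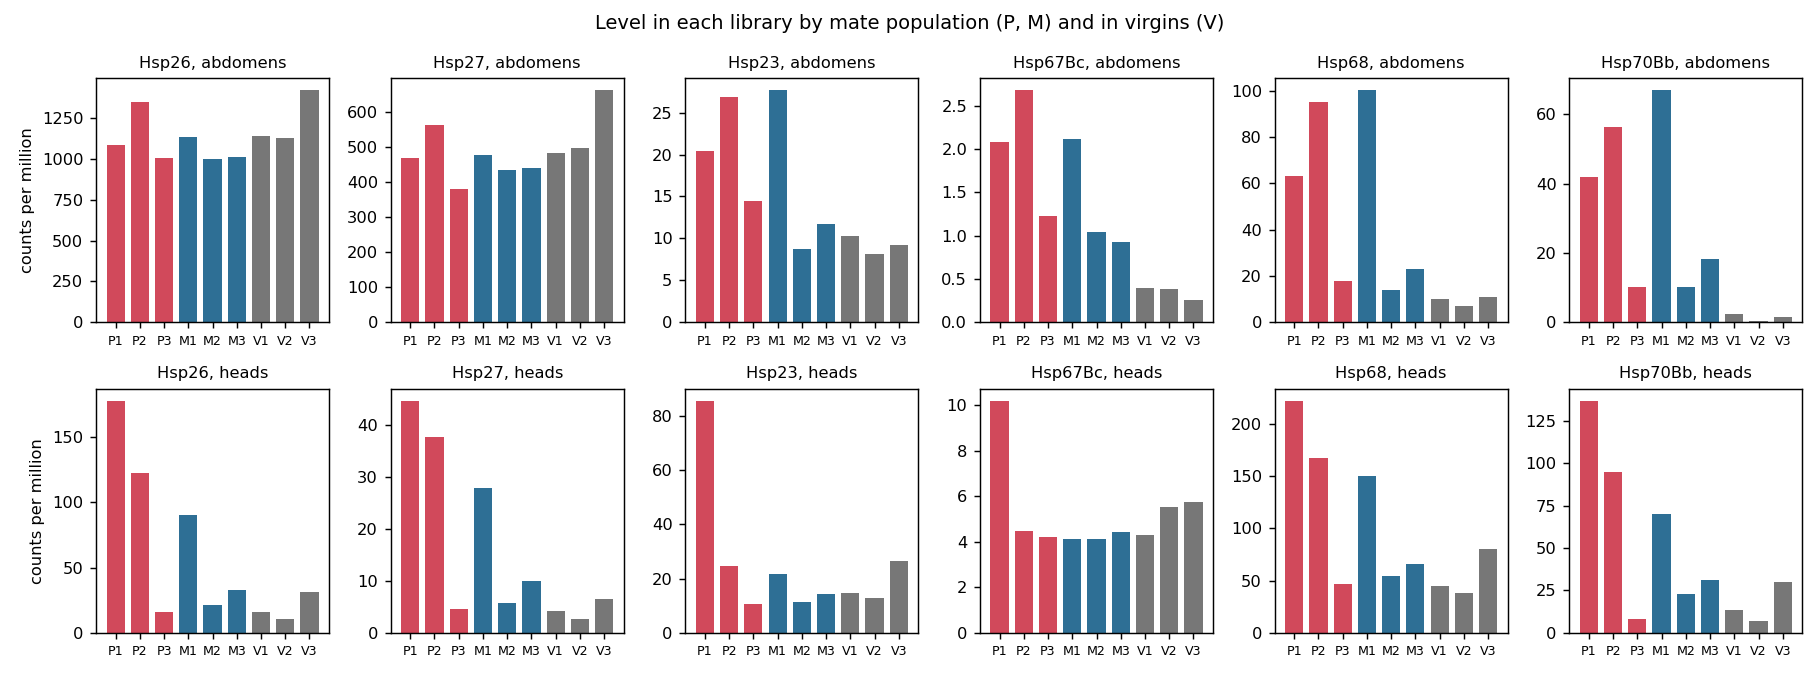
CPM (y axis, from 0) of 4 small heat shock protein genes, Hsp68 and Hsp70Bb in each library (x axis), with abdomens above and heads below. P1, P2 and M1 are the highest mated bars in both tissues for every gene shown except Hsp67Bc, where P1 alone stands out in heads at 10.2 CPM.

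Of 4 other alpha-crystallin genes tested in abdomens, 3 rose after mating and none fell, with a median log2 change of 1.00. Among all genes tested in abdomens 54.2% were called, in either direction. The gene l(2)efl, a relative of the vertebrate alpha-crystallins, averaged 32.6 ± 7.21 CPM in mated abdomens (n = 6) and 13.1 ± 0.481 CPM in virgin abdomens (n = 3), a log2 change of 1.35 ± 0.19 (adjusted p = 0.000543, edgeR). CG4461, within the cluster, changed by 1.27 ± 0.37 (adjusted p = 0.016) and CG14207 by 0.40 ± 0.08 (adjusted p = 0.00281), while CG7409 stood at 0.73 ± 0.31 (adjusted p = 0.0695). Under the muscle and tubule scaling, which moved the median of every gene tested to -0.84, l(2)efl stood at 0.45 (adjusted p = 0.0141), CG4461 at 0.41 (adjusted p = 0.231) and CG14207 at -0.50 (adjusted p = 0.000467). Relative to that median they were at 1.29, 1.25 and 0.35.

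In heads 1 of 5 rose, l(2)efl, by 0.52 ± 0.11 (adjusted p = 0.0403, edgeR), with 99.6 ± 7.98 CPM in mated heads and 71.7 ± 9.17 CPM in virgin heads. The share called over all genes in heads was 2.21%. Without heads virgin 1, M1 and M2, those with high midgut transcripts, 0 genes were called between mated and virgin heads, so this call and those of cher and Pdxk in heads were lost. All 5 were lower in abdomens than in heads, with medians of -6.08 in virgins and -5.30 in mated females. Over all genes 88.5% in virgins and 90.7% in mated females differed between tissues, in either direction. CG13133 had the largest difference, -7.35 ± 0.22 in virgins (adjusted p = 1.58e-14, edgeR). Hsp67Ba and Hsp67Bc thus had the tissue direction of these genes, and Hsp26 and Hsp27 the opposite one.

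Among heat shock factor and its inducible targets, 8 of 11 tested genes rose in mated abdomens and Hsf itself fell. The median log2 change was 2.41 over the list and 0.04 over all genes, of which 54.2% were called. The tested genes include Hsp70Aa, Hsp70Ab, Hsp70Bb, Hsp70Bbb and Hsp70Bc, near-identical copies that do not count as separate targets. Hsf, the transcription factor that activates these genes and the members, averaged 200 ± 22.2 CPM in mated abdomens (n = 6) and 294 ± 5.95 CPM in virgin abdomens (n = 3), a change of -0.52 ± 0.08 (adjusted p = 0.000693, edgeR). Hsp68 changed by 2.54 ± 0.88 (adjusted p = 0.0453), stv, the BAG co-chaperone of Hsp67Bc, by 1.72 ± 0.34 (adjusted p = 0.004) and the stress RNA lncRNA:Hsromega by 1.17 ± 0.14 (adjusted p = 0.00023). Hsp83, the Hsp90 chaperone, averaged 4294 ± 228 CPM in mated and 4337 ± 257 CPM in virgin abdomens and did not pass (adjusted p = 0.864). In heads none of 11 was called by edgeR, 1 had an unadjusted p below 0.05 (Hsp83, -0.48 ± 0.12, adjusted p = 0.0814), and Hsp68 stood at 1.13 ± 0.64 (adjusted p = 0.448). Under the muscle and tubule scaling stv (0.80, adjusted p = 0.0818, edgeR) and Hsp68 (1.61, adjusted p = 0.142) did not pass, at 1.64 and 2.46 above the shifted median of all genes. Hsp70Ab (1.92, adjusted p = 0.0515) did not pass either. Hsp70Aa (1.94, adjusted p = 0.0259), Hsp70Bb (3.78, 0.0175), Hsp70Bc (3.75, 0.0261), Hsp70Bbb (4.45, 0.0329) and lncRNA:Hsromega (0.28, 0.0496) passed as higher. Hsf (-1.42), Hsp83 (-0.88) and DnaJ-1 (-0.67) passed as lower, at -0.57, -0.03 and 0.17 relative to that median.

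Of 8 co-chaperones of small heat shock proteins and of chaperone-assisted autophagy, 4 rose and 3 fell in mated abdomens. The shares called over all genes were 54.2% in abdomens and 2.21% in heads. The autophagy gene Atg8a changed by 0.54 ± 0.07 (adjusted p = 0.000383, edgeR) and cher, the filamin that this pathway clears, by 0.41 ± 0.10 (adjusted p = 0.00541). In heads 1 of 8 rose, cher, by 0.34 ± 0.07 (adjusted p = 0.0316, edgeR). Of 20 constitutive chaperones, 4 rose and none fell in mated abdomens, led by Hsc70-2 (0.78 ± 0.17, adjusted p = 0.00347), and in heads none of 20 was called by edgeR, with 2 at an unadjusted p below 0.05. In both virgin and mated females 18 of these 20 were higher in abdomens than in heads, as Hsp26 and Hsp27 were, and 2 were lower. Over all genes the share that differed between tissues was 88.5% in virgins and 90.7% in mated females. Under the muscle and tubule scaling Atg8a (-0.35), cher (-0.49) and Hsc70-2 (-0.11) turned below 0 in mated abdomens, and relative to the shifted median they stood at 0.49, 0.35 and 0.74.

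The ecdysone response list holds hormone receptors and early genes of the hormone that also drives members of the 67B cluster in development. In mated abdomens 8 of its 13 genes rose, among them Eip75B (0.97 ± 0.09, adjusted p = 9.41e-05, edgeR), Eip74EF (1.64 ± 0.16, adjusted p = 0.000109) and br (1.04 ± 0.11, adjusted p = 0.000164). The 1 gene that fell was the receptor gene EcR (-0.21 ± 0.06, adjusted p = 0.0163, edgeR). These counts stand beside 54.2% of all genes called in abdomens, in either direction. In heads none of 13 was called by edgeR, with 1 at an unadjusted p below 0.05. Under the muscle and tubule scaling Eip74EF was at 0.77 (adjusted p = 4.91e-05, edgeR), or 1.61 above the shifted median. Eip75B at 0.07 and br at 0.15 did not pass under it (adjusted p = 0.63 and 0.284, edgeR), and stood 0.91 and 1.00 above that median.

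Neighbouring genes did not move as a block. Of the 17 other genes within 20 kb of the cluster, 13 were tested in abdomens, and 4 rose and 4 fell after mating. Over all genes 54.2% were called in abdomens and 2.21% in heads. Cpr67B, a cuticle protein gene, changed by 1.19 ± 0.13 (adjusted p = 0.000165, edgeR) and Klp67A, a kinesin gene, by -0.63 ± 0.08 (adjusted p = 0.000281). Under the muscle and tubule scaling Cpr67B stood at 0.30 and Klp67A at -1.52, or 1.15 and -0.68 relative to the shifted median. In heads 1 of 13 fell, the pyridoxal kinase gene Pdxk, by -0.48 ± 0.10 (adjusted p = 0.0356).

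The members fell into different patterns over the 18 libraries. After the mean of each tissue was subtracted from log2 CPM, Hsp26 and Hsp27 had a Pearson correlation of 0.992, and each was the most like the other among 9658 genes searched. Next for both came CG7384 (0.791 with Hsp26, 0.813 with Hsp27) and Irp-1B, an iron regulatory protein gene (0.784 and 0.802). Hsp23 was most like DnaJ-1, an Hsp40 co-chaperone gene (0.866), and Hsp68 (0.848), then loco (0.837). Hsp67Bc was most like 2 serpin genes and an annexin gene, Spn88Eb (0.945), AnxB9 (0.937) and Spn28Dc (0.934), and Hsp67Ba like CG13994 (0.834), SmF (0.785) and mRpL55 (0.781). These correlations describe libraries that share tissues, mating groups and male populations, and they carry no test. Between members, Hsp23 and Hsp67Bc correlated at 0.867 over the 9 abdomens and 0.853 over the 9 heads, while Hsp26 and Hsp67Bc stood at -0.212 and 0.451. The head values include P1, which stood apart for both Hsp23 (85.6 CPM) and Hsp67Bc (10.2 CPM). Head correlations without P1 were not computed.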

How the data were processed

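The submitters' processing notes name Trimmomatic 0.33, TopHat2 2.1.0, HTSeq 0.6.1 and the BDGP6 build. The deposited values are whole-number counts per gene, with no normalisation by the authors. Libraries were stranded, per the labels' protocols. The annotation behind the counts and the treatment of reads shared by several genes: not given in the sources used here. The 36 samples were 2 runs of each of 18 libraries, summed here, giving 6 groups of 3. Nothing says that virgin pools came from separate cultures, so p-values measure the spread between pools.

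Symbols and coordinates came from Ensembl release 115, which held 17387 of 17552 identifiers. Of 224 listed symbols 4 were not found. Counts were tested with edgeR 4.0.16 in R 4.3.3 (TMM, expression filter, robust quasi-likelihood, prior count 2), with 1 model per tissue and 1 over all libraries for tissue comparisons. SE is the log2 change over the square root of F. Over all genes of a model, the common biological coefficient of variation came to 0.172 for abdomens and 0.272 for heads. It does not give the precision of a single gene, which its own SE gives. For mated against virgin heads the SEs of the members ran from 0.117 (Hsp67Ba) to 0.945 (Hsp27). Alternatives were limma 3.58.1 voom, DESeq2 1.42.0, other scalings, no filter, single runs, libraries left out and a replicate block. The test was tried on simulated counts. Every member was named, every gene of 2 lists could be, and up to 3 genes by smallest p of the others. EcR was named in addition, as the 1 ecdysone response gene that fell. Members and lists were chosen with earlier results of these data known.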

Additional observations from a re-analysis of the deposited data

Results flagged for a closer look

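In 10 groups of 6 mated libraries (5 members in 2 tissues), the gap between the most extreme library and its neighbour was set against the group's range, with Dixon's critical value at 95% as the limit. For independent, normally distributed values this limit flags about 1 in 20 groups. Here CPM were not transformed, each group mixed both male regimes and some members correlated, so the actual rate is not known. Flags from the same library are not independent. Library P1 stood apart in heads for Hsp23, at 85.6 CPM with a gap of 0.815 of the range, and for Hsp67Bc, at 10.2 CPM with a gap of 0.943 of the range. P1 was also the highest mated head library for Hsp26 (178 CPM), Hsp27 (44.7 CPM), Hsp67Ba (17.9 CPM) and Hsp68 (222 CPM).

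A test of the difference itself separated the tissues in the mating response of Hsp67Bc, larger in abdomens by 2.07 on the log2 scale (adjusted p = 0.00319, edgeR). It also did so for Hsp27, smaller in abdomens by a difference of -2.53 (adjusted p = 0.0345, edgeR). With all libraries Hsp27 had no edgeR call for mating in either tissue alone. The call of the difference was lost without each of 8 single libraries in turn and with limma voom (adjusted p = 0.148). It was also lost with a replicate block (0.066), without the filter (0.0516) and without heads virgin 1, M1 and M2 (0.103). For Hsp67Bc all 6 mated abdomens lay above all virgin abdomens, and in heads P1 alone lay above the virgin range.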

How the results depend on the processing

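The call of Hsp67Bc in abdomens kept its direction and passed under every alternative run (1.35 to 2.31), as did the difference of its mating response between tissues (1.83 to 2.33). No alternative called a member between male regimes. Depth limits Hsp67Bc in virgin abdomens, with 12 to 21 counts a library.

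Of the 5 members, 1 was called in mated against virgin abdomens. The number was 2 with DESeq2, 2 without mates M1, P1 and P2 together and 4 with libraries scaled on muscle and renal tubule genes, and 1 to 2 with single libraries left out. Under that scaling 466 genes were called higher and 6845 lower, against 2999 and 2609 otherwise. Against virgins separately, monogamous-line matings gave 1 called member (4 with the scaling, 1 to 2 with libraries left out) and polygamous-line matings 1 (2 with total counts alone, 2 with limma voom, 2 with DESeq2, 4 with the scaling, 1 to 2 with libraries left out). In heads DESeq2 called 1 member after polygamous-line matings. The tissue comparisons gave 4 called members, and 4 to 5 with libraries left out. The difference in mating response gave 2, but 1 without the filter, 1 with limma voom, 1 without heads virgin 1, M1 and M2 together, and 1 to 3 with libraries left out. The cause of these shifts was not tested.

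Whether the replicate numbers pair the samples cannot be decided from these values. A mated head and a mated abdomen library of the same label share 1 male population. Deviations from the means of small groups were correlated, which cannot exclude pairing. Of 9 same-numbered pairs each, 3 between tissues, 0 within abdomens and 4 within heads correlated above 0.1. Same-numbered libraries had correlations of -0.404 to 0.259 between tissues, -0.308 to 0.062 within abdomens and -0.547 to 0.724 within heads, and not every library correlated best with its own number. With a replicate block the difference in mating response had 1 called member, Hsp67Bc in mated heads stood at -0.015 and its regime difference between tissues at 0.076. Hsp23 was called between virgin tissues with the block (-1.15, adjusted p = 0.0412, edgeR).

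Among the members, directions turned in values that missed the threshold when all libraries entered. Genes of other lists also turned under the scaling, among them CG14207, Atg8a and Hsc70-4, which had been called higher. Hsp23 stood at -0.080 in abdomens after monogamous-line matings under the scaling, and at -0.61 in mated heads without mates M1, P1 and P2. Hsp67Bc in mated heads stood at -0.0082 with total counts alone, -0.018 with limma voom, -0.079 without heads virgin 1, M1 and M2, and -0.27 without mates M1, P1 and P2. The difference of Hsp67Ba in mating response was 0.021 with RLE factors, 0.068 with total counts, 0.014 without the filter, 0.067 with run 1 alone, 0.018 with DESeq2 and 0.14 without heads virgin 1, M1 and M2. The regime difference of Hsp67Bc between tissues was 0.059 with run 2 alone and 0.062 with limma voom.

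With libraries left out, the regime difference in abdomens ran from -0.0265 to 0.23 for Hsp26, -0.11 to 0.21 for Hsp27 and -0.18 to 0.21 for Hsp67Ba. Polygamous-line matings against virgins ran from -0.22 to 0.0478 for Hsp26 and -0.35 to 0.0381 for Hsp67Ba in abdomens, and from -0.23 to 0.0222 for Hsp67Ba and -0.21 to 0.54 for Hsp67Bc in heads. Mated heads ran from -0.0399 to 0.90 for Hsp23 and -0.22 to 0.15 for Hsp67Bc, and after monogamous-line matings from -0.46 to 0.24 for Hsp23. The mating response of Hsp67Ba differed by -0.16 to 0.11, and regime differences between tissues were -1.47 to 0.14 for Hsp23, -0.36 to 0.0101 for Hsp67Ba and -0.34 to 0.45 for Hsp67Bc.

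Over all genes, heads had 241 calls between mated and virgin females, against 156 with limma voom, 631 with DESeq2, 124 with the block, 0 without heads virgin 1, M1 and M2, 6 without mates M1, P1 and P2 (an alternative chosen after seeing the data), and 77 to 311 with single libraries left out. After monogamous-line matings heads had 108, against 56 with limma voom, 337 with DESeq2, 39 with the block and 12 to 107 with libraries left out, and after polygamous-line matings 150, against 87, 729, 75 and 11 to 314. Without heads virgin 1, M1 and M2 both had 0. Abdomens had 4700 calls after monogamous-line matings, against 7140 with the scaling and 2987 to 5163 with libraries left out. Male regimes had 0 calls, against 10 in abdomens, 18 in heads and 21 between tissues with DESeq2, and up to 79, 2 and 46 with libraries left out. The difference in mating response had 4326 calls, against 2808 with run 2 alone and 2815 without heads virgin 1, M1 and M2. With total counts alone the share of calls that were higher was 28.9% in heads, against 39% otherwise, and 65.3% in the difference in mating response, against 50%, while the median abdomen difference from heads moved to 0.22 in virgins and 0.40 in mated females, against -0.03 and 0.08. Ordering genes by CPM instead of RPKM moved Hsp67Ba above CG13133 in mated heads and above CG4461 in virgin abdomens, and Hsp26 above Hsp23 in virgin heads.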

Other observations

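The antisense gene asRNA:CR43481, which overlaps Hsp67Ba, was higher in mated than in virgin abdomens, with 9.997 ± 1.45 CPM in mated (n = 6) and 5.96 ± 0.522 CPM in virgin females (n = 3), a log2 change of 0.78 ± 0.15 (adjusted p = 0.00185, edgeR). With libraries scaled on muscle and renal tubule genes the call and the direction were lost (-0.11, adjusted p = 0.498), with asRNA:CR43481 0.73 above the shifted median of all genes. In heads it had 0.297 ± 0.0871 CPM in mated and 0.368 ± 0.0838 CPM in virgin females, a change of -0.24 ± 0.27 (adjusted p = 0.703). Per kilobase of exon Hsp67Ba, on the other strand, was the higher of the pair in heads and the lower in abdomens.

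The runs of a library differed by a median of 0.11 on the log2 scale for Hsp26 and 0.06 for Hsp27. For Hsp67Bc the median was 0.18, and the largest difference between the runs of a library was 1.08.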
